A study of Arabidopsis thaliana with 6 samples.

Results

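miR162, miR168, miR403 and miR838 are the Arabidopsis miRNA families tied to the small RNA machinery itself. They were taken from the deposited miRNA loci by family number, mature and star strands alike, where a star is the partner strand of the miRNA in its duplex. The families hold 12 of 679 loci. Loci with the same count in every library were counted once, which left 9 of 565 distinct sequences: miR162a, miR162a-star, miR168a, miR168a-star, miR168b-star, miR403, miR403-star, miR838 and miR838-star.

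The libraries came from 10-day-old Col-0 seedlings in 6 groups of 1 library each. The groups were parg1-1 given 100 nM flg22, parg1-1 untreated, parp1parp2 given 100 nM flg22, parp1parp2 untreated, wild type (WT) given 100 nM flg22 and WT untreated. The protocol moved seedlings from agar plates to water the day before treatment, and how long flg22 acted is not stated. flg22 is a fragment of bacterial flagellin that plant cells recognise at their surface, and PARP and PARG enzymes add and remove ADP-ribose chains on proteins. The study's title concerns DAWDLE, an FHA domain protein known to take part in miRNA biogenesis.

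In plants, miRNA precursors are cut by the Dicer-like enzyme DCL1, and the mature strand is loaded mainly into the Argonaute protein AGO1, which silences matching transcripts. The pathway regulates itself through miRNAs: miR162 guides cleavage of the DCL1 transcript, miR168 that of AGO1, and miR403 acts on AGO2, an Argonaute with roles in antiviral and antibacterial defence. The hairpin of miR838 lies inside an intron of the DCL1 gene, so that processing of the hairpin and splicing of the transcript are alternatives. The transcripts of DCL1, AGO1 and AGO2 were not analysed here.

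The mature sequences and stars with most counts are printed to show which strands were measured and how similar they are. They were read 5′ to 3′ from the TAIR10.1 genome at the deposited intervals, and capitals mark bases 2 to 8, the seed.
miR162a: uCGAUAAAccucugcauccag
miR162a-star: gGAGGCAGcgguucaucgauc
miR168a: uCGCUUGGugcaggucgggaa
miR168a-star: cCCGCCUUgcaucaacugaau
miR168b-star: cCCGUCUUguaucaacugaau
miR403: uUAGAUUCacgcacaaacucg
miR838: uUUUCUUCuacuucuugcaca

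No seed was shared between these sequences, and each was found at only 1 distinct sequence among all intervals. miR162a and miR162b have the same mature sequence and the same star, so their reads cannot be assigned to a locus. miR168a and miR168b share the mature sequence too, but their stars differ by the substitutions C5U and C10U, counted from the 5′ end with the miR168a-star base first. Reads matched exactly would therefore report on the 2 miR168 loci separately through their stars. How reads were matched is not stated, and this separation was not tested. Intervals of other families with the same length were compared base by base without a shift. The closest differed from miR162a at 10 bases and from miR403 at 9. Copies of another length or with a shifted start were not searched for.

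miR162a lies at chr5:2634936-2634956 on the minus strand in MIR162a (AT5G08185), and miR162b at chr5:7740610-7740630 on the minus strand in MIR162b (AT5G23065). miR168a lies at chr4:10578652-10578672 on the plus strand in MIR168a (AT4G19395), and miR168b at chr5:18358873-18358893 on the minus strand in MIR168b (AT5G45307). miR403 lies at chr2:19415154-19415174 on the plus strand in MIR403 (AT2G47275). None of these loci (0) overlaps a protein-coding gene of the annotation. miR838 lies at chr1:28635-28655 on the plus strand, in intron 14 of DCL1 (AT1G01040), a gene of 20 exons on the same strand. That intron runs from 28432 to 28707 and is 276 bases long.

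The deposited star intervals do not all start where the annotated strand starts. The miR162a-star interval begins 1 base inside the annotated miR162a-5p, and that of miR403-star begins 2 bases inside the annotated miR403-5p, while the miR168 stars coincide with annotated strands. How reads were matched to these intervals was not stated in the labels, and the part of these offsets in the star counts was not tested.

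The sites on the known target transcripts were located to show how each miRNA meets the machinery it regulates. Each was taken as the best complementary window in the annotated transcripts of the gene, without gaps except for 1 bulged base in DCL1, and it is written 5′ to 3′ as in the transcript, with capitals for bases that are unpaired, bulged or in a G:U pair.
DCL1 site of miR162a: cuggaugcagagguAuuaucga
AGO1 site of miR168a: uucccgaGcugcaUcaagcUa
AGO2 site of miR403: Ggaguuugugcgugaaucuaa
AGO3 site of miR403: GAUguuugugcgugaaucuaa

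The DCL1 site paired with all 21 bases of miR162a once 1 bulged transcript base was allowed. It is split over exons 12 and 13, in the coding sequence, from 27522 to 27627 on chromosome 1. The other annotated DCL1 transcript carries 3 more bases at this exon junction, and its best window paired with 18 of the 21 bases. The AGO1 site of miR168a lies in coding exon 2 (chr1:17891529-17891549, minus strand), with 18 bases paired, 1 G:U pair and 2 mismatches. The miR403 sites lie in the 3′ UTR of AGO2 (chr1:11185223-11185243, plus strand), with 20 bases paired, and in that of AGO3 (chr1:11192399-11192419, plus strand), with 18 paired. With 1 bulged transcript base, the best AGO3 window paired with 20 bases, that of AGO2 with 20 and that of AGO1 with 17. Without a bulge, the best window of the first DCL1 transcript paired with 15, so these numbers depend on the rule. A matching window is a description of the sequence and no measurement of cleavage.

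Total counts ran from 247508 to 408805 per library over all loci, and from 119798 to 187728 over distinct sequences. CPM levels rest on totals over loci, in which a sequence at several loci counts more than once. Levels are given as CPM, counts scaled by TMM to a common library total, and the limit that a count of 0 allows (3 counts) was 7.21 to 12.2 CPM. The reads were amplified by PCR without molecular identifiers being named, so all intervals and this limit hold for counting error alone. Over distinct sequences the chi-square per degree of freedom between pairs of libraries ran from 16.3 to 90.5. The highest values were for parg1-1 with flg22 against WT with flg22 (90.5) and untreated WT (83.6). Against parp1parp2 that library had 55.0 with flg22 and 76.1 untreated, but only 26.5 against untreated parg1-1. This measure grows with the number of counts. No library repeated another within sampling noise.

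The families together took 8.56% of the counts over distinct sequences in parg1-1 with flg22 and 6.98% in untreated parg1-1. The share was 4.54% and 4.46% in parp1parp2, and 4.66% and 4.31% in WT, each with flg22 first and untreated second. Both parg1-1 libraries thus lay above the 4 others. miR162a held the 7th rank among distinct sequences in both parg1-1 libraries, and rank 13 or 14 in the others.

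**Figure D1:**
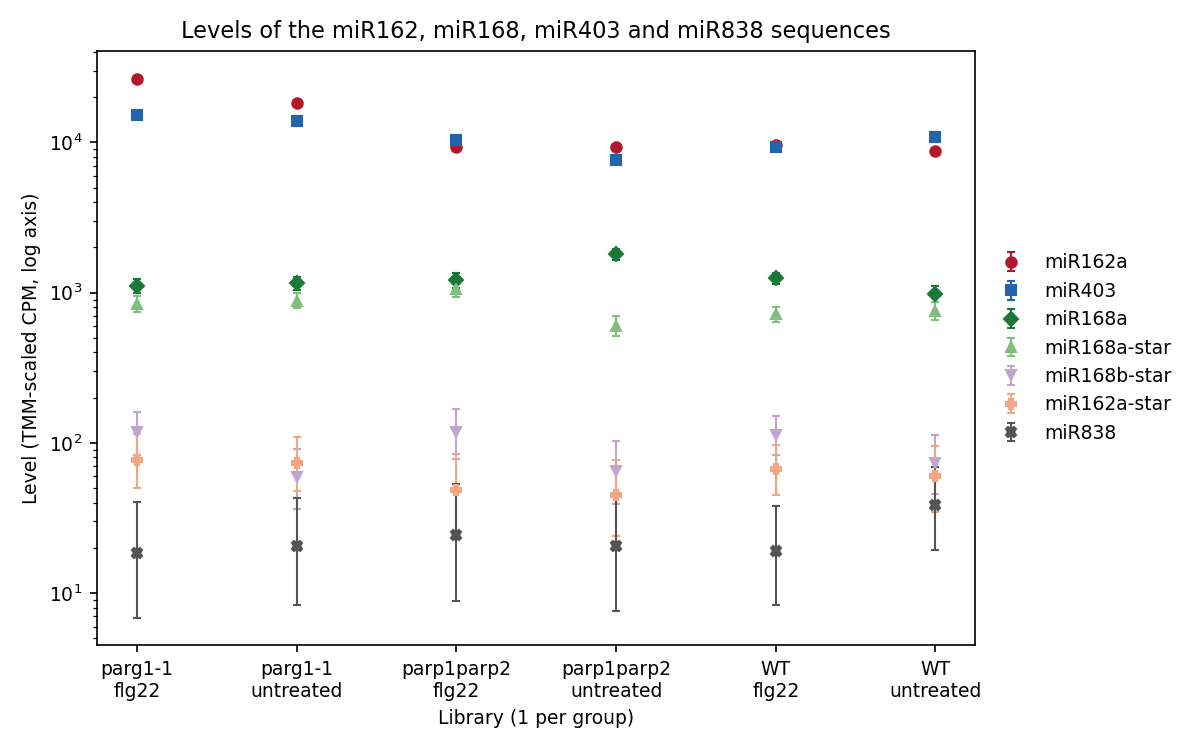
Levels of the 7 sequences with more than 1 count, as TMM-scaled CPM on a log axis, in each of the 6 libraries (points, 1 library per group; bars are exact 95% Poisson counting intervals). miR162a stands at 26370 and 18280 CPM in the parg1-1 libraries, above the 8770 to 9555 CPM of the others, while miR838 stays between 18.5 and 38.7 CPM.

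The order of the levels was similar in each library. miR162a (8770 to 26370 CPM) and miR403 (7615 to 15120 CPM) were the most abundant. miR168a followed at 979 to 1800 CPM and miR168a-star at 600 to 1057 CPM. miR168b-star (59.2 to 117 CPM), miR162a-star (44.8 to 77.2 CPM) and miR838 (18.5 to 38.7 CPM) were low. miR838-star had 1 count, in untreated WT, and miR403-star had 0 counts in every library. Neighbours in this order overlapped within libraries for miR162a and miR403, which changed places: miR162a was above miR403 in both parg1-1 libraries, in untreated parp1parp2 and in WT with flg22, and below it in the other 2. The ranges of miR168b-star and miR162a-star also overlapped.

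The first comparison set parg1-1 against WT for the regulator of DCL1. The sequence listed as ath-miR162a had 8533 counts (26370 CPM) in parg1-1 with flg22 and 6180 counts (18280 CPM) in untreated parg1-1. In WT it had 3977 counts (9555 CPM) with flg22 and 2490 counts (8770 CPM) untreated. Both parg1-1 values lay above both WT values, a description whose share over all tested sequences was not counted. In an additive model of genotype and treatment over all 6 libraries, miR162a rose: its log2 fold change was 1.27 ± 0.21 (SE; edgeR quasi-likelihood test, Benjamini-Hochberg adjusted p = 0.00823), higher in 2 of 2 treatments. In whole seedlings, more cells that make a miRNA and more of it per cell cannot be told apart, and the same holds for fewer cells and less per cell. Of the 187 loci tested, 10.7% were called, 2.14% as higher in parg1-1 and 8.56% as lower, and the 2 miR162 loci are 2 of the 4 called higher.

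miR403 (ath-miR403), which acts on AGO2, had the next highest fold change in parg1-1 among the 6 tested members. It had 15120 CPM in parg1-1 with flg22 and 13860 CPM untreated, against 9293 and 10920 CPM in WT. Both parg1-1 values lay above both WT values here too, again without a count over all tested sequences. The fitted log2 fold change of 0.51 ± 0.22 did not pass (edgeR adjusted p = 0.227).

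The remaining strands did not pass in parg1-1. ath-miR168a, the regulator of AGO1, had 1109 and 1151 CPM in parg1-1 with flg22 and untreated, against 1247 and 979 CPM in WT, and the groups overlapped (log2 fold change 0.01 ± 0.31). miR168a-star had 844 and 885 CPM in parg1-1 with flg22 and untreated, against 716 and 761 CPM in WT, without overlap (0.23 ± 0.33). ath-miR162a-star had 77.2 and 74.0 CPM in parg1-1, against 67.3 and 59.9 CPM in WT, without overlap of these point values (0.25 ± 0.34). The counting intervals of miR168a-star and of miR162a-star did overlap between parg1-1 and WT. For miR162a-star they were 50.0 to 114 and 47.9 to 109 CPM, against 44.7 to 97.2 and 34.9 to 95.9 CPM. How many of all tested sequences lay without overlap was not counted. ath-miR168b-star had 117 and 59.2 CPM in parg1-1, against 113 and 74.0 CPM in WT, and the groups overlapped (-0.11 ± 0.32). The edgeR adjusted p of these 4 ran from 0.762 to 0.976. In all, 1 of 6 tested member sequences was called, with a median log2 fold change of 0.24, beside a median of 0.03 over all 136 tested sequences. An unadjusted edgeR p below 0.05 was found for 26 of the 136, of which 2 were members.

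**Figure D2:**
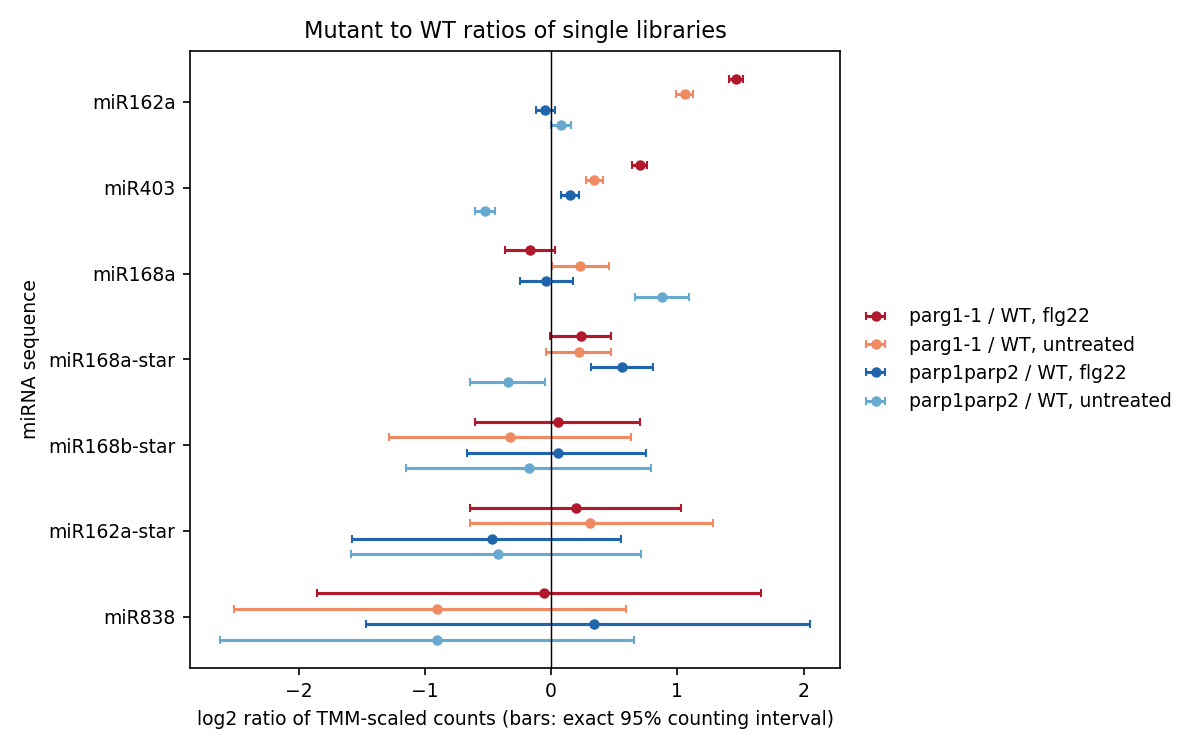
Log2 ratios of TMM-scaled counts of a mutant library to the WT library of the same treatment, for 7 sequences (points; bars are exact 95% counting intervals). miR162a lies at 1.46 and 1.06 in parg1-1 and at -0.05 and 0.08 in parp1parp2, while the intervals of miR162a-star and miR838 include 0 in all 4 pairs.

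Within single pairs, the fold of miR162a in parg1-1 over WT was 2.76 with flg22 (95% interval 2.66 to 2.87) and 2.08 untreated (1.99 to 2.18). That of miR403 was 1.63 (1.56 to 1.70) with flg22 and 1.27 (1.21 to 1.33) untreated. Among 136 sequences ranked by this ratio, miR162a was 4th from the top with flg22 and 2nd untreated. 9 sequences were at least 2-fold higher with flg22 and 2 untreated, and miR162a was the member among them in both treatments.

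The mature miR162 strand and its star differed in their ratio to WT in parg1-1 with flg22. Star reads made up 0.292% of miR162 counts (exact Clopper-Pearson 95% interval 0.189% to 0.431%) in parg1-1 with flg22 and 0.403% (0.261% to 0.594%) in untreated parg1-1. They made up 0.699% (0.465% to 1.01%) in WT with flg22 and 0.678% (0.396% to 1.08%) in untreated WT. With flg22 these intervals did not overlap, and the star-to-mature ratio of parg1-1 differed from that of WT by a log2 value of -1.26 (95% interval -2.04 to -0.49, from a normal approximation). Untreated, the value was -0.76 and its interval of -1.65 to 0.14 included 0. In parp1parp2, on 12 and 13 star counts, the share was 0.522% (0.270% to 0.910%) with flg22 and 0.481% (0.256% to 0.821%) untreated. These intervals overlapped those of parg1-1 and of WT in the same treatment. For parp1parp2 against parg1-1, the log2 value was 0.84 (-0.155 to 1.84) with flg22 and 0.26 (-0.71 to 1.23) untreated. The star rested on 25 and 25 counts in parg1-1 against 28 and 17 in WT, and this measure does not depend on how libraries were scaled.

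The second comparison set parp1parp2 against WT. miR162a had 9260 and 9270 CPM in parp1parp2 with flg22 and untreated, against 9555 and 8770 CPM in WT, and the fitted log2 fold change was 0.02 ± 0.21 (edgeR adjusted p = 0.972). The parp1parp2 values lay between the WT values at this scaling. With identical sequences counted once, the untreated log2 ratio of parp1parp2 to WT was 0.36 in place of 0.08, so this order depends on the scaling. None of the 6 member sequences passed in edgeR (0 with an unadjusted p below 0.05, 0 by DESeq2), beside 0.535% of loci called. An unadjusted p below 0.05 was found for 9 of the 136 tested sequences. The log2 fold changes of the members ran from -0.44 ± 0.37 for miR162a-star to 0.42 ± 0.31 for miR168a.

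miR168a had its highest level, and its star its lowest, in the untreated parp1parp2 library. The mature strand had 522 counts (1800 CPM) there and 300 counts (1215 CPM) in parp1parp2 with flg22. In WT it had 519 counts (1247 CPM) with flg22 and 278 (979 CPM) untreated. miR168a-star had 174 counts (600 CPM) in untreated parp1parp2 and 261 counts (1057 CPM), its highest level, in parp1parp2 with flg22. WT had 298 (716 CPM) with flg22 and 216 (761 CPM) untreated. The untreated log2 ratio of parp1parp2 to WT was 0.88 (0.67 to 1.09) for miR168a and -0.34 (-0.64 to -0.05) for miR168a-star, or -0.06 for the star with identical sequences counted once. The median over the 136 sequences was -0.29 in this pair. With flg22 the ratios were -0.04 (-0.25 to 0.17) and 0.56 (0.32 to 0.81).

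The strand balance shows the same libraries without any scaling. Stars from both loci made up 49.2% (45.1% to 53.3%) of miR168 counts in parp1parp2 with flg22 and 27.0% (23.8% to 30.4%) in untreated parp1parp2. They made up 46.4% and 45.1% in parg1-1, and 39.9% and 46.0% in WT, with flg22 and untreated. Untreated parp1parp2 lay below the 5 other libraries, whose lowest interval bound was 36.7%. Against untreated WT, its star-to-mature ratio differed by a log2 value of -1.21 (-1.55 to -0.86). With flg22 the difference between parp1parp2 and WT had the other sign, at 0.54 (0.24 to 0.84). The untreated value rests on 1 library, so a genotype difference and a difference of that library cannot be told apart.

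**Figure D3:**
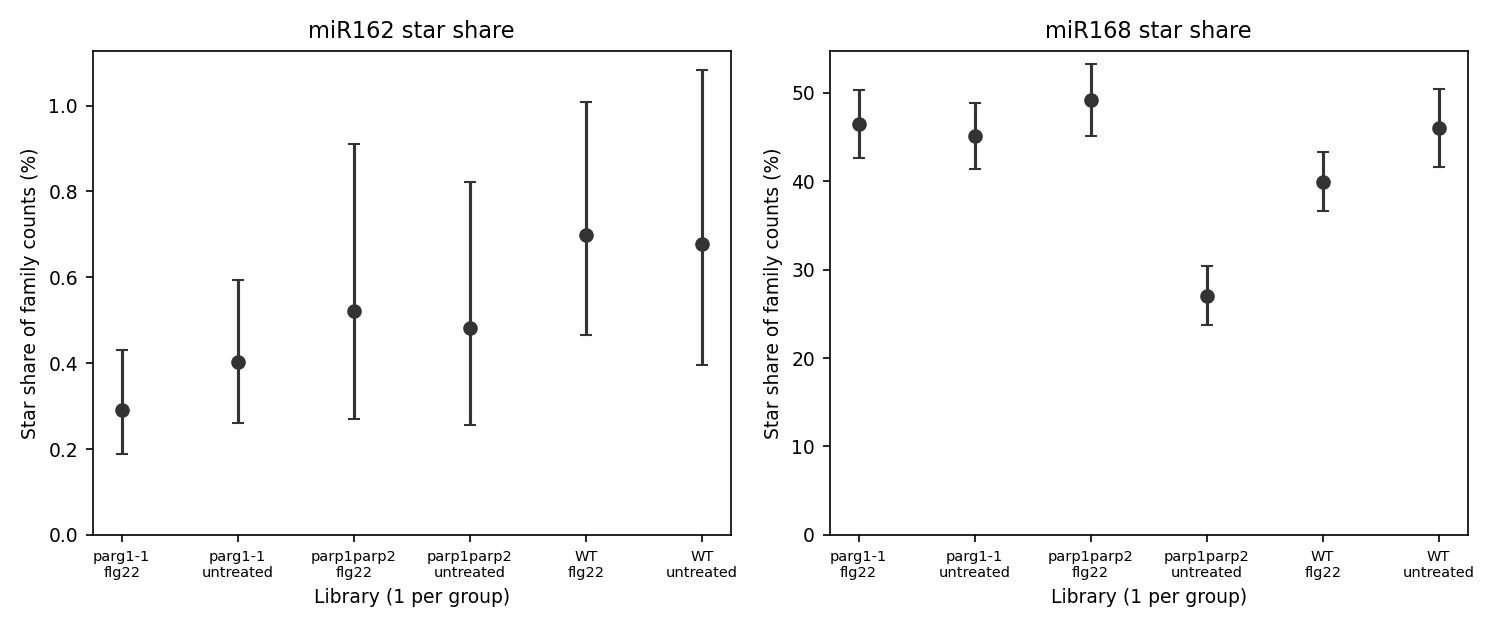
Star counts as a percentage of mature plus star counts of miR162 (left) and miR168 (right) in each of the 6 libraries (points; bars are exact Clopper-Pearson 95% intervals). The miR162 share is lowest in the parg1-1 libraries, at 0.292% and 0.403%, with intervals that overlap those of parp1parp2 (0.522% and 0.481%). The miR168 share is 27.0% in untreated parp1parp2 against 39.9% to 49.2% elsewhere.

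miR403 was lower in the untreated parp1parp2 library and higher in the treated one, relative to WT. It had 10310 CPM in parp1parp2 with flg22 and 7615 CPM untreated, against 9293 and 10920 CPM in WT. The log2 ratio to WT was 0.15 (0.08 to 0.22) with flg22 and -0.52 (-0.60 to -0.44) untreated, and the second was -0.24 with identical sequences counted once. The groups overlapped, and the fitted value did not pass.

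Set against parg1-1 directly, parp1parp2 held less miR162a, and its miR403 levels were lower without passing in edgeR. miR162a fell by 1.25 on the log2 scale ± 0.21 (SE; edgeR adjusted p = 0.0142), lower in 2 of 2 treatments. It was the 1 member called, in a comparison in which 1.07% of loci were called, all of them loci of the miR162 sequence. An unadjusted edgeR p below 0.05 was found for 23 of the 136 tested sequences, of which 2 were members. miR403 had a log2 fold change of -0.70 ± 0.22 and did not pass in edgeR (adjusted p = 0.143), while DESeq2 called it (-0.72, adjusted p = 0.0251). The miR403 levels of 10310 and 7615 CPM in parp1parp2 did not overlap with the 15120 and 13860 CPM in parg1-1. How many tested sequences lay likewise was not counted. miR162a-star had a log2 fold change of -0.69 ± 0.37 (edgeR adjusted p = 0.305), with 12 and 13 counts in parp1parp2 against 25 and 25 in parg1-1. The comparisons of each mutant with WT share the WT libraries, and this one shares the parg1-1 libraries with the first.

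The calls of miR162a depended on single libraries. In fits without 1 library, which leave 1 residual degree of freedom, the log2 fold change of parg1-1 over WT stayed between 1.12 and 1.49. It passed without untreated parp1parp2 (edgeR adjusted p = 1.58e-06) and not in the other 5 fits: the adjusted p was 0.409 without parg1-1 with flg22, 0.123 without untreated parg1-1, 0.128 without WT with flg22, 0.321 without untreated WT and 0.094 without parp1parp2 with flg22. For parp1parp2 against parg1-1, miR162a likewise passed only in the fit without untreated parp1parp2 (edgeR adjusted p = 0.000231), and the other 5 fits gave values up to 0.884. Where such a fit leaves a genotype with 1 library, that library is assumed to vary like the others.

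The third comparison asked whether flg22 moved the members across genotypes. None of the 6 members passed in edgeR (1 with an unadjusted p below 0.05, 0 by DESeq2), beside 0% of all loci. Over the 136 tested sequences, 1 had an unadjusted p below 0.05. That 1 was miR168b-star, the star listed for the MIR168b locus. It had 38, 29 and 47 counts (117, 117 and 113 CPM) with flg22 in parg1-1, parp1parp2 and WT, against 20, 19 and 21 counts (59.2, 65.5 and 74.0 CPM) untreated. The point values of the flg22 and untreated libraries did not overlap, but their counting intervals did. The number of tested sequences with such a separation was not counted. The log2 fold change was 0.81 ± 0.27 (edgeR adjusted p = 0.996). The interval of the single ratio excluded 0 in parg1-1 (0.99, 0.17 to 1.85) and included it in parp1parp2 (0.84, -0.04 to 1.76) and WT (0.61, -0.16 to 1.43).

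miR168a-star, listed for the other locus, did not share this pattern in each genotype. The share of miR168b-star among both stars was 12.2% (8.79% to 16.4%) with flg22 and 6.27% (3.87% to 9.52%) untreated in parg1-1. In WT it was 13.6% (10.2% to 17.7%) and 8.86% (5.57% to 13.2%), and in parp1parp2 10.0% (6.80% to 14.1%) and 9.84% (6.03% to 14.9%). The log2 change of this star-to-star ratio was 1.06 (0.24 to 1.87) in parg1-1, 0.02 (-0.85 to 0.90) in parp1parp2 and 0.70 (-0.09 to 1.48) in WT.

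**Figure D4:**
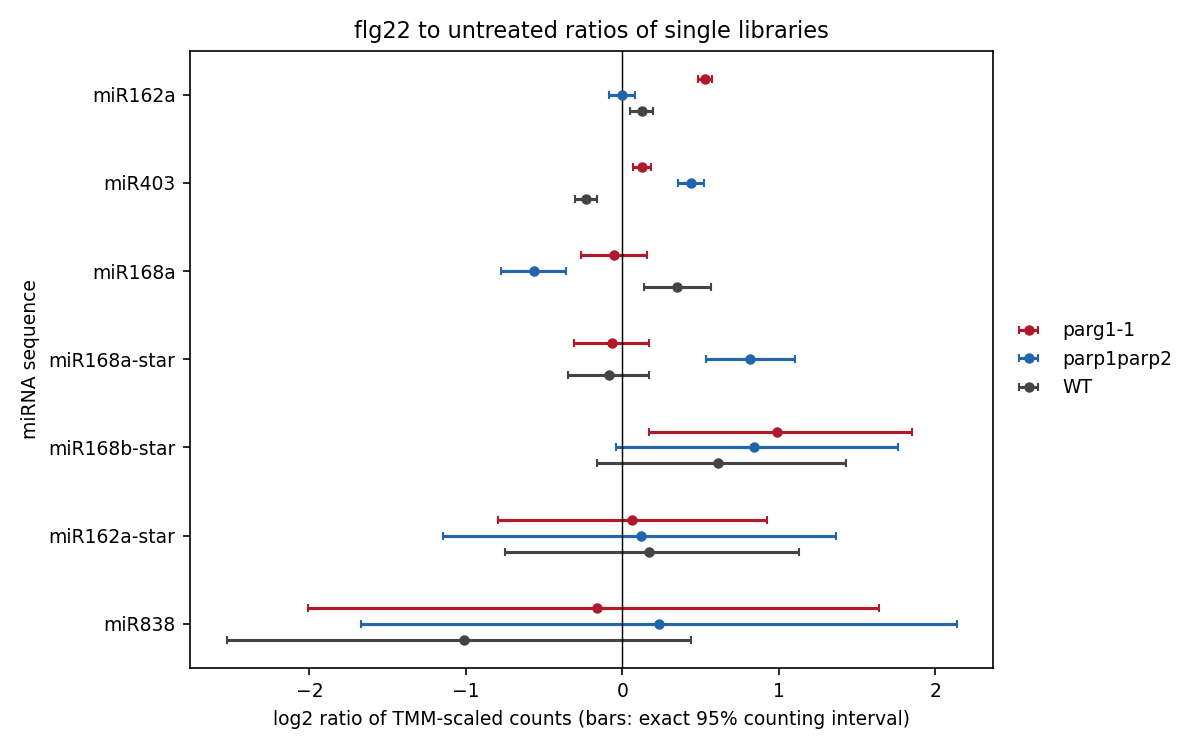
Log2 ratios of TMM-scaled counts of the flg22 library to the untreated library of each genotype, for 7 sequences (points; bars are exact 95% counting intervals). miR168b-star lies above 0 in the 3 genotypes at 0.61 to 0.99, whereas miR168a lies at -0.57 in parp1parp2, -0.05 in parg1-1 and 0.35 in WT.

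Among miR162a, miR403, miR168a and miR168a-star, the log2 ratios of flg22 to untreated ran from -0.57 to 0.82. miR162a had a log2 ratio of flg22 to untreated of 0.53 (0.48 to 0.57) in parg1-1, 0.00 (-0.08 to 0.08) in parp1parp2 and 0.12 (0.05 to 0.20) in WT. Its fitted flg22 effect was 0.22 ± 0.17 (edgeR adjusted p = 0.996). miR403 had 0.13 (0.07 to 0.19) in parg1-1, 0.44 (0.35 to 0.52) in parp1parp2 and -0.23 (-0.30 to -0.16) in WT, the last being -0.06 with identical sequences counted once. miR168a had -0.05 (-0.26 to 0.16) in parg1-1, -0.57 (-0.78 to -0.36) in parp1parp2 and 0.35 (0.14 to 0.56) in WT. Its star had -0.07 (-0.31 to 0.17) in parg1-1, 0.82 (0.54 to 1.10) in parp1parp2 and -0.09 (-0.34 to 0.17) in WT.

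A response particular to 1 mutant was tested with an added model term, which leaves 1 residual degree of freedom. For parg1-1, edgeR called 0 members and 0% of loci, and DESeq2 called 0 members. An unadjusted edgeR p below 0.05 was found for 0 members and for 2 of the 136 tested sequences. miR162a had a log2 difference of 0.47 ± 0.40 (edgeR adjusted p = 1) there and miR168a-star -0.43 ± 0.60. For parp1parp2, edgeR called 0 members (1 with an unadjusted p below 0.05, 0 by DESeq2), beside 5.88% of loci, 1.6% as higher and 4.28% as lower. An unadjusted p below 0.05 was found for 14 of the 136 tested sequences. The member among them was miR168a-star, with a log2 difference of 0.89 ± 0.42 (edgeR adjusted p = 0.344). miR168a had -0.71 ± 0.42 and miR403 0.49 ± 0.38.

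ath-miR838, from the DCL1 intron, had 6, 7, 6, 6, 8 and 11 counts in parg1-1 with flg22, parg1-1 untreated, parp1parp2 with flg22, parp1parp2 untreated, WT with flg22 and WT untreated. It missed the minimum of 10 counts in at least 2 libraries and was not tested. All of its ratios between libraries had intervals that included 0: with flg22, for example, the fold of parg1-1 over WT was 0.965 (0.276 to 3.17). A change of 2-fold was therefore not detectable at this depth. Its 44 counts over the 6 libraries were above the median of 11 for 32 other sequences in introns of protein-coding genes on the same strand. Of those, 7 had more counts, led by miR156d with 36310, whose mature sequence also stands at other loci.

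miRNAs that trigger trans-acting siRNAs, another branch of the small RNA pathway, were set beside the members. The miR173, miR390 and miR828 families hold 9 distinct sequences, of which 4 were tested: miR173-5p, miR390a and their stars. None of these 4 passed in edgeR in the comparisons above. In parg1-1 against WT their log2 fold changes ran from -0.61 for miR173-5p to 0.28 for miR390a-star, with a median of -0.18 and a smallest edgeR adjusted p of 0.281.

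Across the 6 libraries, the sequences of other families whose log2 CPM followed miR162a most closely were miR447a-3p (Pearson r = 0.945), miR408 (0.939) and miR846-star (0.896), among 130 compared with a median r of 0.109. For miR403 they were miR165a-star (0.968), miR837-3p (0.964) and miR5012 (0.951), and for miR168a miR156a (0.939), miR861-3p (0.878) and miR167a (0.754). For miR168a-star they were miR840 (0.99), miR161.1-star and miR5634, and for miR168b-star miR393a-star (0.779), miR167d-star and miR167b-star. miR162a-star was closest to miR846-star (0.952), miR5012 and miR447a-3p. Several of these rest on few counts, such as miR840 with 5 to 14 and miR846-star with 14 to 43 per library. The points share libraries and scaling, and the values are descriptions with no test.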

How the data were processed

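Small RNA was sequenced from whole seedlings, with 1 library for each of 3 genotypes with and without flg22. Per the labels' protocols, libraries were made from gel-selected small RNA with a ligation kit and sequenced in a shared lane. The authors deposited whole-number read counts for 679 named intervals, without strand. Bowtie 0.12.8, bedtools and TAIR10 are named per the submitters' processing notes, with no role given, and no source used here states how reads were matched to intervals. All 337 mature intervals coincided with miRNAs annotated on TAIR10.1, from which strand, context and sequence were read. Each of the 80 sequences at more than 1 locus had the same count at each.

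The 187 loci (136 sequences) that reached 10 counts in 2 or more libraries were fitted with edgeR 4.0.16 (TMM, glmQLFit, glmQLFTest, two-sided, R 4.3.3) in an additive model with 2 residual degrees of freedom, adjusted over all loci and called under 0.05. No group has a replicate, and the labels name no separate cultures. The p-values therefore reflect the spread among these 6 libraries alone, which may be technical. The additive model assumes the same flg22 effect in each genotype, so differences in response between genotypes enter this spread. edgeR also borrows spread across the 187 loci, which include loci of identical counts. Ratios of library pairs carry exact conditional binomial 95% intervals. Depth was 247508 to 408805 counts per library over all loci and 119798 to 187728 over distinct sequences. Intervals cover counting error only. Alternatives were DESeq2 1.42.0, its size factors, total counts, no filter, identical sequences counted once and each library left out. The fit was also run on simulated counts of distinct sequences, with 30 known changes of 4-fold in parg1-1, 1 common spread and no flg22 effect. Those settings are simpler than the data, so they do not show how the fit performs here. All distinct member sequences are named, and likeness was given for members with at least 100 counts in all, as the 3 tested sequences of other families with the highest r. The members and lists were chosen with earlier results of these data known.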

Additional observations from a re-analysis of the deposited data

Results flagged for a closer look

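The flg22 to untreated ratio of miR168a had opposite signs in genotypes, each with a counting interval that excluded 0: -0.567 on the log2 scale in parp1parp2 and 0.349 in WT. That of miR403 was 0.126 in parg1-1 and 0.437 in parp1parp2, against -0.233 in WT. Each value compares 1 library with 1 library, so these sign differences were not tested by replicates. The added model term for the response of parp1parp2 did not pass for either (edgeR adjusted p = 0.482 for miR168a and 0.608 for miR403). That term sets parp1parp2 against WT and parg1-1 together, so it cannot decide on a difference from WT alone. No group has enough libraries for a search for outlying samples.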

How the results depend on the processing

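The number of member sequences called in parg1-1 against WT was 1, and between 0 and 1 when a library was left out, and likewise for parp1parp2 against parg1-1, where DESeq2 gave 2, adding miR403. The miR162a value of parp1parp2 against parg1-1 lay between -1.47 and -0.98 without a library and between -1.32 and -1.11 in the other settings. For miR162a in parg1-1 against WT the other settings gave 1.28 to 1.36. In the same comparison edgeR called 20 loci over all families, DESeq2 10 and the fit of identical sequences counted once 12, and 0 to 32 were called without a library. For parp1parp2 against parg1-1 these were 2, 8, 13 and 0 to 26, with 9 under DESeq2 size factors and 4 with no filter. Against WT, parp1parp2 had 1 called locus, 2 with no filter and 0 to 8 without a library, and flg22 had 0, and 0 to 3 without a library. The term for the flg22 response of parp1parp2 had 11 called loci, 2 in DESeq2, 0 under DESeq2 size factors and 5 with identical sequences counted once. Signs turned only in values that had not passed. Without a library, parg1-1 against WT ran from -0.32 (without untreated WT) to 0.47 for miR168a and from -0.0053 (without untreated parg1-1) to 0.52 for miR168a-star. For miR168b-star it ran from -0.18 to 0.0026 (without untreated parg1-1), with 0.0017 without untreated WT. miR162a in parp1parp2 against WT ran from -0.15 (without untreated parp1parp2) to 0.37, and the flg22 effect on miR168a from -0.33 to 0.27 (without parp1parp2 with flg22), with 0.15 without untreated parp1parp2. Of the recomputed ratios of library pairs, 167 stayed within the counting interval and 22 left it. The sign changed in 7, all with an interval that included 0, among them miR168a-star in WT with flg22 against untreated (0.08 with identical sequences counted once), and in 0 of those whose interval excluded 0. With identical sequences counted once, the untreated ratio of parp1parp2 to WT was 0.36 for miR162a and 1.16 for miR168a. Counting the miR168 mature strand at both loci gave star shares of 15.6% in untreated parp1parp2 and 24.9% to 32.6% elsewhere. Fits with a response term were not run without a library, since no residual degree of freedom would remain. No paired analysis was possible because the labels give no replicate numbers and each group holds 1 library. Counts of 6 to 47 per library limit miR838, miR162a-star and miR168b-star.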
